A study of Arabidopsis thaliana with 48 samples.

Results

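A group of 99 probe sets had more RNA in CCA1OX seedlings than in Col seedlings at all 4 times of day that were sampled. A probe set is the set of short array probes that reads 1 transcript or a few like ones. The members were chosen by their values: each had a CCA1OX minus Col difference of log2 group means of at least 0.5, about 1.4-fold, at light 120, dark 280, light 1080 and dark 1240. Of 22746 probe sets 108 passed, which is 0.475%, and 9 of these were left aside (COR15A, COR15B, PME61, ATPMEPCRD, AT5G44440, AT1G30760, SWEET3, GI and 1 unnamed probe set). By the mirror rule 54 probe sets were lower in CCA1OX at all 4 times. Of the 99 members, 45 carried a single gene name in the tables used here, 1 named several genes and 53 had no name, so these are given by probe set.

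RNA came from pooled whole seedlings of Arabidopsis thaliana on medium with sucrose, moved from short days to 3 light and dark cycles a day, and was hybridised to 48 Affymetrix ATH1 arrays. CCA1OX overexpresses the clock factor CCA1 (21 arrays), pif4 pil5 is a double mutant of a pair of phytochrome-interacting factors (6 arrays), and Col is the unmodified accession (21 arrays). CCA1OX and Col were sampled on days 4, 5 and 6 after germination at minute 120 of the day in light, at 280 in dark, at 1080 in light and at 1240 in dark, with 6 arrays per line at dark 280 and 5 at each other time, and pif4 pil5 at dark 280. The hypocotyl was labelled growing in CCA1OX at both dark times and in Col at dark 280, and not growing in every other group, pif4 pil5 included. The labels do not give the promoter of the CCA1 transgene or the number of lines, and the overexpressed and the mutated genes had no named probe set here, so whether each line bears out its label at those genes was not examined. In whole seedlings, more cells of a type and more RNA per cell cannot be told apart.

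CCA1 is a MYB-like transcription factor made at dawn. It represses evening genes, among them genes that in turn repress CCA1, and lines with constant CCA1 are known for disturbed rhythms, a long hypocotyl and late flowering. The members described here are those whose difference between the lines kept its direction at every time sampled, in light and in dark.

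Replicates were seedling pools of following days and of 2 time courses. In CCA1OX and Col each time course was also 1 of the 2 array campaigns, and dates in the array names gave 5 array batches. Array medians ran from 4.57 to 4.80 on the log2 scale and no arrays were identical. Some libraries stood apart from their groups. At 253207_at, which was higher in the dark in both lines, the library labelled Col dark 280 replicate 3 had 2.98, against 5.74 to 6.43 on the other 5 Col dark 280 arrays. There the library labelled Col light 1080 replicate 3 had 5.26, against 2.89 to 3.60 on the other 4 Col light 1080 arrays. So each lay near the other group's level there, against its label. Both are of day 6 and of the first campaign. At AT4G35720 and 247951_at, also called higher in the dark in CCA1OX, these libraries had 3.84 and 4.38 in the one labelled dark 280, below the other 5 arrays of that group, and 5.18 and 5.53 in the one labelled light 1080, above the other 4. At AT1G52000, called lower in the dark in CCA1OX, the library labelled dark 280 had 7.99, above the other arrays of that group. The one labelled light 1080 had 4.64 there, below the others of its group. At AT1G12845 the library labelled Col dark 280 replicate 3 had 6.67, inside the range of its group. Whether the labels of this pair were exchanged was not tested; an exchange would change the Col dark minus light values and those set against Col at dark 280 or light 1080. At AT4G35720 CCA1OX dark 280 replicate 2 had 4.86, against 6.67 to 7.46 on the other 5 CCA1OX dark 280 arrays. Without these 3 arrays 103 probe sets passed the selection, 83 of them members.

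The size of the difference was modest in most members and larger in a few. Averaged over the 4 times it had a median of 0.92 and ran from 0.61 to 4.08 on the log2 scale; it was at least 1 in 46 members and at least 2 in 3. By time, the median member difference was 0.94 at light 120, 0.83 at dark 280, 0.83 at light 1080 and 0.98 at dark 1240. Over all 22746 probe sets these medians were 0.011, -0.0022, -0.0016 and -0.0078. Since the selection used these values, they describe the group and received no test. Nearest to the limit inside were 264214_s_at, AT5G15190 and 254926_at, with smallest differences of 0.508, 0.505 and 0.505, and just outside were AT4G22610, AT1G62510 and AT3G48970 with 0.4999, 0.498 and 0.497.

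**Figure D1:**
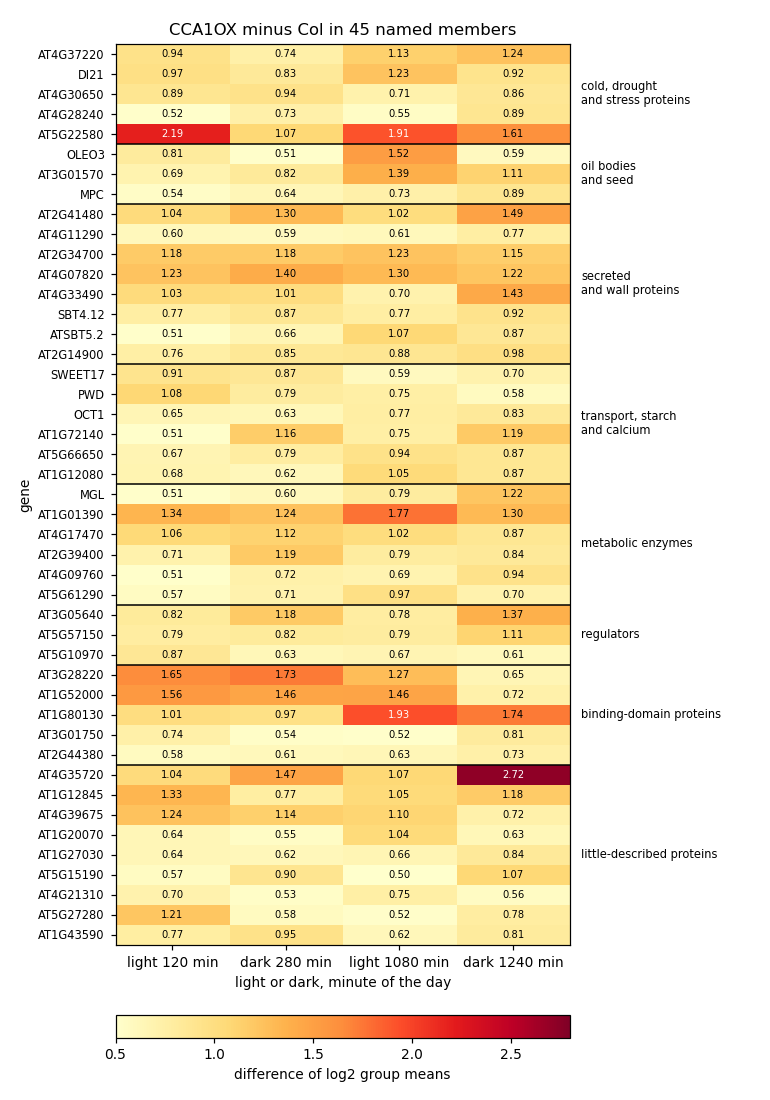
Difference of log2 group means, CCA1OX minus Col, in the 45 named members (rows, ordered by role) at the 4 times (columns, minute of the day); the number in each cell is the difference. Every cell is at least 0.50 because the selection required it, and the highest is 2.72 in AT4G35720 at dark 1240.

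Members differed in how flat their difference was over the day. The gap between a member's largest and smallest difference had a median of 0.49 and ran from 0.079 to 2.26. It stayed under 0.5 in 52 members and reached 1 or more in 14. The flattest was AT2G34700, an Ole e 1 and extensin family wall protein, with differences of 1.18, 1.18, 1.23 and 1.15 in the order of the day. AT4G35720 had 1.04, 1.47, 1.07 and 2.72. The largest difference fell at dark 1240 in 40 members, at light 120 in 25, at light 1080 in 23 and at dark 280 in 11.

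Complete separation of the lines over all times was rare. MPC, which encodes a maternally expressed protein like the C-terminal part of poly(A)-binding proteins, was the only member with every CCA1OX array above every Col array. Over all probe sets 2 of 22746 had this, 0.00879%. MPC had 2.79, 3.04, 3.08, 2.78 and 2.80 at light 120 in CCA1OX, against 2.50, 2.24, 2.12, 2.33 and 2.60 in Col. At dark 280 its mean was 3.10 ± 0.21 in CCA1OX and 2.46 ± 0.11 in Col (SD, n = 6 each), and the lowest CCA1OX array had 2.76, against a highest Col array of 2.61. At light 1080 the values were 2.67, 3.58, 3.16, 2.70 and 3.07 in CCA1OX, against 2.26, 2.23, 2.37, 2.44 and 2.22 in Col. At dark 1240 they were 3.40, 3.66, 2.98, 3.03 and 2.97 in CCA1OX, against 2.33, 2.64, 2.16, 2.06 and 2.38 in Col. The lowest CCA1OX array, 2.67, thus lay just above the highest Col array, 2.64, and all of these are low values on arrays whose values ran from 1.24 to 13.1. Among the members 22 had a mean level below the median probe set.

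In 11 members at least 15 of the 21 CCA1OX arrays exceeded the highest Col array, and the median count was 8. The selection favours high counts, and the share of all probe sets with such counts was not computed. All 21 CCA1OX arrays lay above the Col median in 46 of the 99 members, against 0.919% of all probe sets; the selection favours such members. SDs were also taken over all 21 arrays of a line, so they hold shifts between times, days and campaigns. They were larger in Col than in CCA1OX in 67 members, with medians of 0.542 in CCA1OX and 0.640 in Col.

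The first 5 named members described belong to families tied to cold, drought or other stress, and their mean differences had a median of 0.99. DI21, a drought-induced gene of the LEA type, was among the best separated members. It had 9.05, 8.32, 8.08, 8.71 and 8.50 at light 120 in CCA1OX, against 7.53, 7.30, 7.80, 7.76 and 7.43 in Col. At light 1080 it had 8.57, 8.39, 8.48, 8.20 and 9.34 in CCA1OX, against 7.37, 6.58, 7.66, 7.61 and 7.59 in Col. At each of these times the lines did not overlap, and over the whole set 20 of 21 CCA1OX arrays were above the highest Col array. The dark means of DI21 were 8.40 ± 0.32 in CCA1OX and 7.57 ± 0.24 in Col at 280 (SD, n = 6 each), and 8.32 ± 0.29 in CCA1OX and 7.40 ± 0.30 in Col at 1240 (SD, n = 5 each). A single CCA1OX array, at 7.78 in dark 280, lay inside the Col range.

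AT5G22580, whose product has a stress-responsive A/B barrel domain, had the highest mean difference of a named member, 1.70 or 3.24-fold. At light 120 it had 7.86, 8.32, 9.01, 7.49 and 8.81 in CCA1OX, against 6.93, 6.17, 6.20, 6.00 and 5.22 in Col. At dark 280 the lowest, median and highest were 6.73, 8.04 and 8.40 in CCA1OX and 5.64, 6.86 and 7.93 in Col. The lines were apart at light 120 and overlapped at dark 280. AT4G37220, of the WCOR413 cold acclimation family, had a mean difference of 1.01, and lay between 5.27 and 6.69 in CCA1OX (median 6.15) and between 4.44 and 5.84 in Col (median 5.00). The low temperature and salt responsive AT4G30650 and the wound-responsive AT4G28240 had mean differences of 0.85 and 0.67, with wide overlap of the lines. The well known cold genes COR15A and COR15B passed the same rule but are not among the 99.

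A further 8 members encode secreted or wall proteins, with a median mean difference of 0.95. AT4G07820, a CAP domain protein like PR-1, lay between 2.76 and 5.74 on the CCA1OX arrays (median 4.04) and between 2.25 and 3.17 on the Col arrays (median 2.59). Of its 21 CCA1OX arrays 17 were above every Col array. The class III peroxidase AT2G41480, an enzyme of the wall and apoplast, lay between 3.59 and 5.78 in CCA1OX (median 4.86) and between 2.87 and 4.68 in Col (median 3.51), while the other peroxidase, AT4G11290, differed by 0.64 on average. AT2G34700 had 18 of 21 CCA1OX arrays above the highest Col array, with medians of 4.61 in CCA1OX and 3.29 in Col. The aspartyl protease AT4G33490, the subtilases SBT4.12 and ATSBT5.2 and the gibberellin-regulated peptide gene AT2G14900 had mean differences of 1.04, 0.83, 0.78 and 0.87. Of 21 Col arrays 19 lay below the lowest CCA1OX array at ATSBT5.2.

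Another 3 members are known from seeds. OLEO3 and AT3G01570 encode oleosins, proteins that coat the oil bodies which seedlings consume after germination, and had mean differences of 0.86 and 1.00. OLEO3 was lower on average in dark than in light in both lines and its lines overlapped at 3 of the 4 times; at light 1080 it had 6.31, 5.72, 5.70, 6.30 and 5.97 in CCA1OX, against 4.63, 4.39, 4.06, 5.06 and 4.28 in Col. AT3G01570 lay between 4.22 and 7.20 in CCA1OX (median 6.55) and between 4.29 and 6.56 in Col (median 5.11). No gene of the seed and embryo marker list had a name here, so these could not be set beside it.

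A group of 6 members works in transport, starch turnover or calcium binding, with a median mean difference of 0.80. SWEET17, a fructose transporter of the vacuole, had medians of 6.98 in CCA1OX and 6.37 in Col, and PWD, the phosphoglucan water dikinase that acts in starch breakdown, had 8.27 in CCA1OX and 7.62 in Col. The difference of PWD was smaller at each later time, with 1.08, 0.79, 0.75 and 0.58 in the order of the times. The carnitine transporter OCT1, the transporter AT1G72140 of the nitrate and peptide family, the mitochondrial calcium uniporter family gene AT5G66650 and the calcium-binding protein gene AT1G12080 had mean differences of 0.72, 0.90, 0.82 and 0.80. SWEET17 and DI21 are direct neighbours on chromosome 4, with 0 genes between them in RefSeq's order of genes (assembly TAIR10.1). The next closest pair of named members, AT1G20070 and ATSBT5.2, had 10 genes between them.

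Another 6 members are metabolic enzymes. AT1G01390, a UDP-glycosyltransferase, which attaches sugars to small molecules, had the highest mean difference of these, 1.41, with medians of 6.43 in CCA1OX and 4.66 in Col. The alpha/beta hydrolases AT4G17470 and AT2G39400 had 1.02 and 0.88, MGL, the methionine gamma-lyase of methionine breakdown, 0.78, the flavin-dependent monooxygenase AT5G61290 0.74, and the choline kinase AT4G09760 0.71. A set of 3 members may act in gene or signal control. The basic helix-loop-helix gene AT5G57150 had 20 of 21 CCA1OX arrays above the highest Col array, with ranges of 5.96 to 6.84 in CCA1OX and 5.00 to 6.03 in Col, and the PP2C phosphatase AT3G05640 and the zinc finger gene AT5G10970 had mean differences of 1.04 and 0.69.

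Another 5 members encode proteins with domains that bind other molecules. AT1G80130, with tetratricopeptide repeats, differed by 1.41 on average, AT3G28220, with a TRAF-like domain, by 1.32. AT1G52000, a jacalin-type lectin, was 2.46-fold higher on average. AT3G01750, with ankyrin repeats, and AT2G44380, with C1 domains, differed by 0.65 and 0.64. The range of AT1G52000 was 5.39 to 8.07 in CCA1OX and 3.90 to 7.99 in Col, so that 1 CCA1OX array exceeded the highest Col array. That Col array is the library labelled Col dark 280 replicate 3, which stood apart. The other Col dark 280 arrays had 3.90 to 5.35. The remaining 9 named members are little described. Of these AT4G35720, AT1G12845 and AT4G39675 had the highest mean differences, 1.57, 1.08 and 1.05, and AT1G43590, annotated as a pseudogene, had 0.79.

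**Figure D2:**
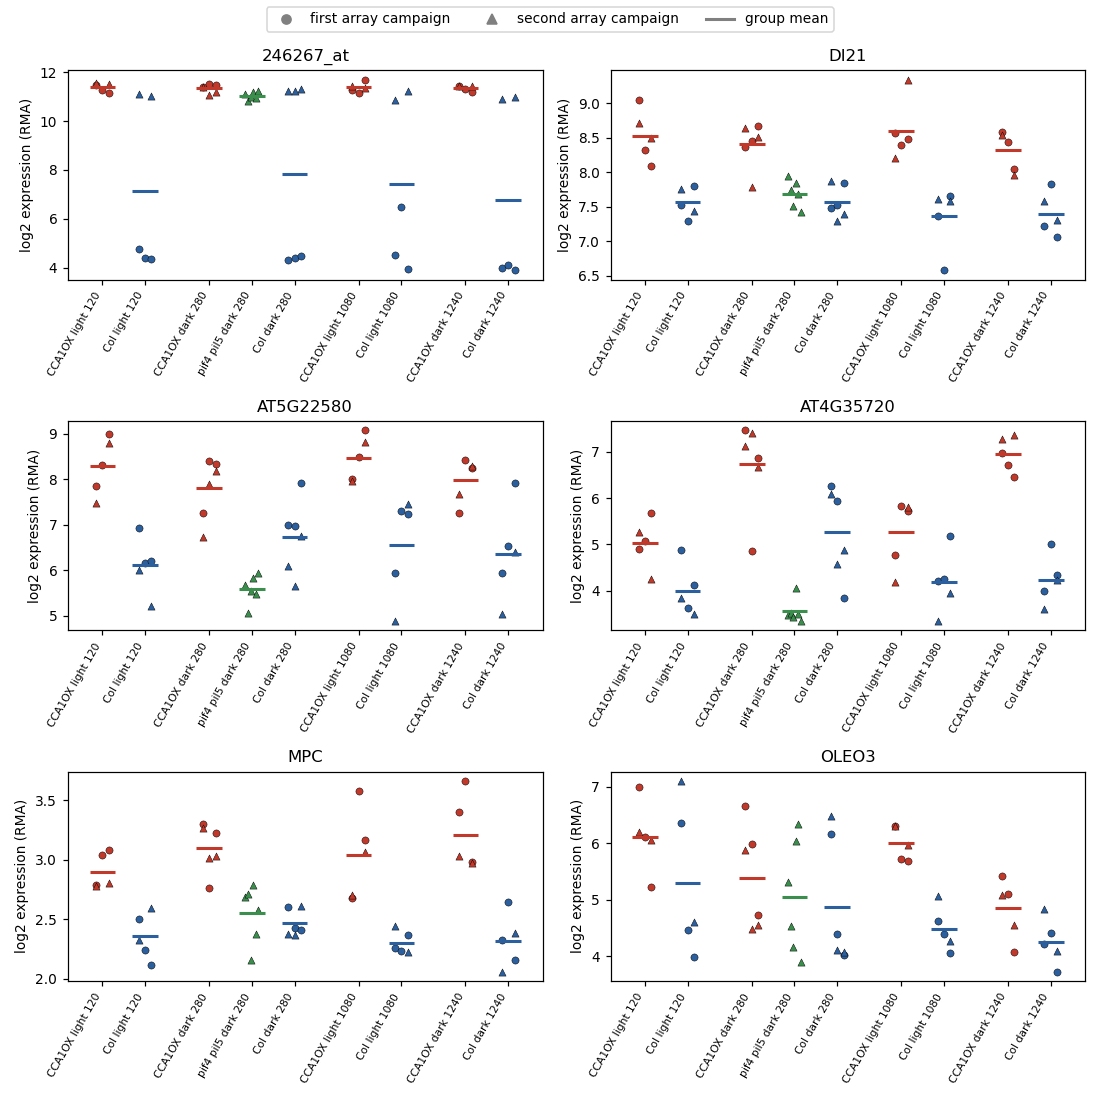
Log2 expression (vertical axis) of 6 members on each array in the 9 groups (horizontal axis: line, light or dark and minute of the day); circles are the first and triangles the second array campaign, and lines are group means. MPC shows no overlap of CCA1OX and Col, and 246267_at splits Col by campaign, near 4 in the first and near 11 in the second.

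The highest mean difference of all, 4.08 at the unnamed 246267_at, differed between the array campaigns in Col. In CCA1OX its arrays lay between 11.13 and 11.69 in the first campaign and between 11.06 and 11.58 in the second. In Col the 12 arrays of the first campaign lay between 3.90 and 6.49, with a median of 4.38, and the 9 of the second between 10.88 and 11.30. The 6 pif4 pil5 arrays, all of the second campaign, lay between 10.83 and 11.22. So its mean difference was 6.88 in the first campaign and 0.32 in the second, where it failed the rule. The 4.08 thus averages 2 unlike campaigns, and whether the Col seed stock differed between them was not tested. It was the only probe set of 22746 whose Col campaigns differed by 3 or more, here by 6.62, while those of CCA1OX differed by under 0.5, here by 0.018; these limits were set after its values were seen. The other unnamed members with the highest mean differences were 259417_at with 2.15, 265058_s_at with 2.03 and 266799_at with 1.85, and each had its difference in both campaigns.

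The selection was repeated in each campaign alone. Each campaign holds part of the arrays that selected the members, so likeness between campaigns or batches is partly built in. The values describe the members and are no independent test. How many of all probe sets were above 0 at every time in both campaigns was not computed. The members' mean differences had a median of 0.86 in the first campaign, against 1.03 in the second. The rule held for 57 members in the first, 76 in the second, 41 in both and 7 in neither. In 96 of the 99 the difference was above 0 at every time in both campaigns; the exceptions were 259789_at and 259640_at in the first and 246267_at in the second. The phosphatase gene AT3G05640 differed by 0.52 (first campaign) and 1.73 (second campaign), and the oleosin gene AT3G01570 by 1.41 and 0.48. DI21 had 1.02 and 0.95 and AT4G37220 1.01 and 1.03, so these were alike in both campaigns. Within a single array batch the median member difference at a given time ran from 0.43 (light 120, batch 1, 1 array a line) to 1.21 (light 120, batch 4, 1 array a line).

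**Figure D3:**
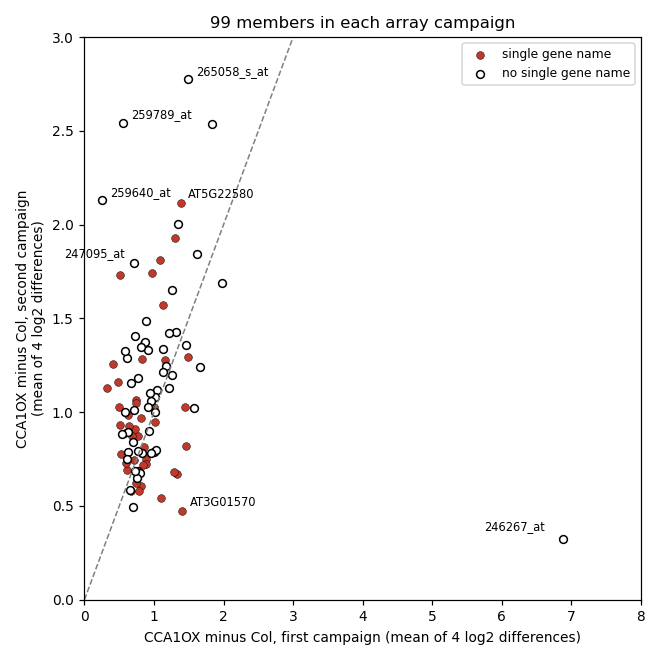
Mean over the 4 times of the log2 difference CCA1OX minus Col in the first (horizontal) and second (vertical) array campaign for the 99 members; the dashed line marks equal values, filled points have a single gene name and open points do not. The point far to the right is 246267_at at 6.88 and 0.32, and 63 members lie above the line.

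The next question was whether members also follow the light cycles, which the selection did not use. The mean of the dark groups minus the mean of the light groups was tested within each line, with limma and Benjamini-Hochberg adjustment over all probe sets at 0.05. In CCA1OX 12 members passed, 12.1%, of which 7 were higher and 5 lower in the dark, against 10.2% of all probe sets (4.95% higher and 5.29% lower). In Col 4 passed, 4.04%, with 3 higher and 1 lower, against 3.24% of all (1.32% higher and 1.92% lower). These shares are near those of the whole array. All 4 members called in Col were called in CCA1OX. Without the 3 arrays that stood apart 19 members passed in CCA1OX, against 13.3% of all probe sets, and 11 in Col, against 8.99% of all. These arrays were picked at members that follow light and dark, so more such calls without them are partly built in. In Col 7 passed without Col dark 280 replicate 3 alone, against 5.77% of all, and 7 without Col light 1080 replicate 3 alone, against 6.29% of all. In the first campaign alone 0 members and 0% of all probe sets passed by limma in either line.

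AT4G35720 rose most in the dark among named members in CCA1OX. It had 6.98, 6.71, 6.46, 7.28 and 7.36 at dark 1240, against 4.77, 5.82, 5.72, 4.18 and 5.81 at light 1080, and lowest, median and highest values of 4.86, 7.00 and 7.46 at dark 280, against 4.90, 5.08, 5.67, 5.26 and 4.25 at light 120. The groups did not overlap at the late pair of times, and at the early pair only the dark array at 4.86 fell in the light range. The dark minus light difference was 1.70 ± 0.28 (SE) with a limma adjusted p of 4.95e-05. In Col the dark means of AT4G35720 were 5.26 ± 0.98 (SD, n = 6) at 280 and 4.24 ± 0.51 (SD, n = 5) at 1240. Its light means in Col were 4.00 ± 0.54 and 4.19 ± 0.66 (SD, n = 5 each), with no call. These Col values include the libraries labelled dark 280 replicate 3 (3.84) and light 1080 replicate 3 (5.18), which stood apart. The first array campaign alone gave a limma adjusted p of 0.259 for AT4G35720 in CCA1OX. Whether the dark minus light difference itself differs between the lines was not tested, because the selection used the differences between lines.

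The unnamed 253207_at rose in the dark in both lines, by 2.04 ± 0.34 in CCA1OX (limma adjusted p = 4.51e-05) and by 1.34 ± 0.34 in Col (limma adjusted p = 0.0169). Also higher in the dark in CCA1OX were 247951_at by 1.41, 250662_at by 1.33, AT4G33490 by 0.83, AT1G12845 by 0.64 and 256062_at by 0.52. AT1G20070 fell in the dark in both lines. In CCA1OX it had 6.41, 5.75, 5.21, 6.38 and 6.03 at dark 1240, against 7.36, 7.26, 7.36, 7.74 and 7.87 at light 1080, with no overlap. In Col it had 5.50, 5.35, 4.30, 5.83 and 5.64 at dark 1240, against 6.85, 6.13, 5.60, 6.77 and 7.05 at light 1080, with a small overlap. The only overlapping light value, 5.60, is that of the library labelled Col light 1080 replicate 3, which stood apart. Over both pairs of times AT1G20070 differed by -1.25 in CCA1OX (limma adjusted p = 7.75e-05), and in Col it passed at a limma adjusted p of 0.00472. Lower in the dark in CCA1OX were also the lectin gene AT1G52000, by 1.13, and 246299_at, 255048_at and 266995_at. The calls of AT1G52000 and AT1G12845 in CCA1OX lay just under the threshold, and each was lost on leaving out any of 32 single arrays. In Col AT1G12845 was also called, higher in the dark by 0.85 (limma adjusted p = 0.0178). That Col call held on leaving out any single array, and was lost in each campaign alone and with only the groups compared.

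The time of day was tested as the late pair of times minus the early pair. No member passed in CCA1OX by limma, with 1 at an unadjusted p under 0.05, and 0% of all probe sets passed. No member passed in Col by limma either, with 12 at an unadjusted p under 0.05, and 0.268% of all passed (0.18% higher and 0.0879% lower). Without the 3 arrays that stood apart 5 members passed in Col, against 0.958% of all probe sets, and 0 members and 0% of all in CCA1OX. The median late minus early difference of the members was 0.11 in CCA1OX and 0.059 in Col. How many of all probe sets had an unadjusted p under 0.05 here was not computed. A p that misses the threshold does not show that levels were equal.

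**Figure D4:**
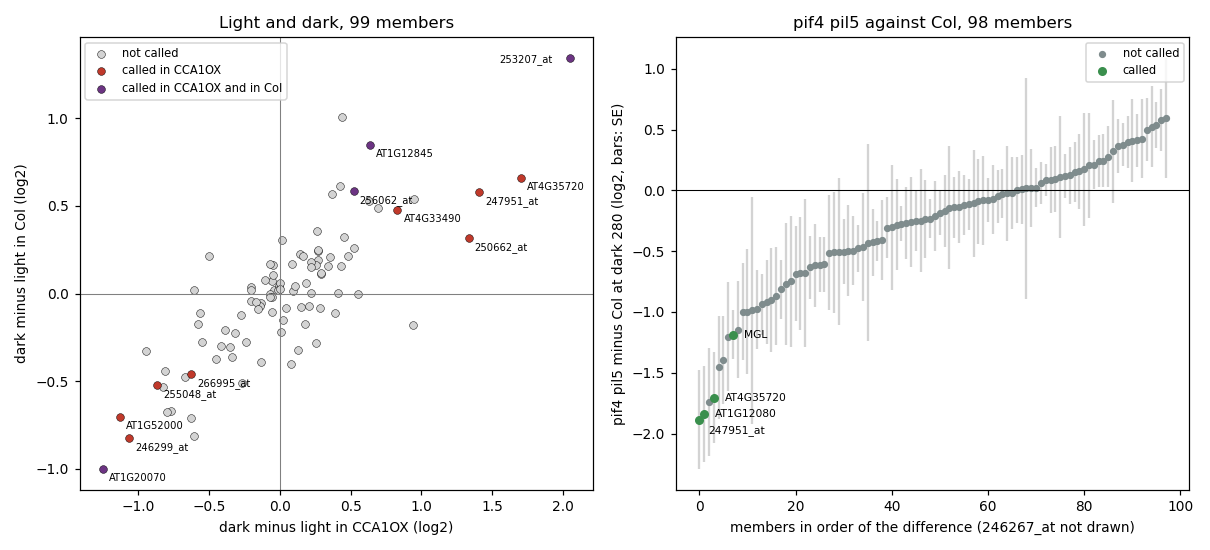
Left, dark minus light in CCA1OX (horizontal) and in Col (vertical), log2, for the 99 members, with the 12 called members named. Right, pif4 pil5 minus Col at dark 280 (log2, bars are SE) for 98 members in order; 246267_at at 3.22 is not drawn, and the 4 called members, all below 0, are named.

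At dark 280 the double mutant was set against Col to see where the members stand in a line whose hypocotyls were labelled not growing. This comparison shares the Col dark 280 arrays with the selection. All 6 pif4 pil5 arrays are of the second campaign and of array batch 5, while the Col dark 280 arrays come from both campaigns. In the main fit the line is therefore partly mixed with campaign and batch. Of the members 4 were lower in pif4 pil5, 4.04%, against 0.404% of all probe sets lower, and 0 higher, against 0.202% of all higher. In either direction 0.607% of all passed. A limma unadjusted p under 0.05 was found in 25 members, and the share of all probe sets at that limit was not computed. The difference was below 0 in 66 members and above 0 in 33, with a median of -0.21, against 0.027 over all probe sets. Within array batch 5, where 6 pif4 pil5 arrays met 1 Col array, the median was -0.17 and 42 members were above 0.

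The 4 were AT1G12080, MGL, AT4G35720 and 247951_at. AT1G12080, the calcium-binding protein gene, had lowest, median and highest values of 4.32, 5.01 and 5.34 in pif4 pil5 and 5.91, 6.42 and 8.16 in Col. It was the only member whose 6 pif4 pil5 arrays all lay below all 6 Col arrays, which 0.444% of all probe sets did. It differed by -1.84 ± 0.40 (SE, limma adjusted p = 0.0161). Over all times the means of AT1G12080 in the first and second campaign were 7.18 and 6.39 in Col, and 8.06 and 7.07 in CCA1OX. MGL had 5.80, 6.34 and 6.77 in pif4 pil5 and 6.67, 7.46 and 8.16 in Col, a small overlap, and differed by -1.19 ± 0.20 (limma adjusted p = 0.00152).

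AT4G35720 had 3.35, 3.49 and 4.07 in pif4 pil5 and 3.84, 5.41 and 6.27 in Col, and differed by -1.71 ± 0.37 (limma adjusted p = 0.0190). 247951_at differed by -1.89 ± 0.41 (limma adjusted p = 0.0161), and its pif4 pil5 arrays were close together, from 4.21 to 4.41, against 4.38 to 7.32 in Col. At AT4G35720 and 247951_at the lowest Col value is that of the library labelled replicate 3, which stood apart. With array batch as a block AT4G35720 lost its call (limma adjusted p = 0.0512) and the other 3 passed. In the second campaign alone AT4G35720 and MGL lost theirs. There AT1G12080 differed by -1.40, MGL by -0.70 and AT4G35720 by -1.62. With batch as a block these differences were -1.46, -0.98 and -1.71. In a fit of the compared groups alone none of the 4 passed. Leaving out Col dark 280 replicate 1 or replicate 2 gave 1 call, against 0.189% and 0.259% of all probe sets. Leaving out Col dark 280 replicate 3 or Col light 120 replicate 3 gave 7, against 0.721% and 0.712% of all, and leaving out Col dark 280 replicate 4 gave 9, against 2.78% of all. Without the 3 arrays that stood apart 8 members passed, against 0.809% of all. With the replicate number of the titles as a block 9 passed, against 1.57% of all. The stress gene DI21 had 7.42, 7.71 and 7.95 in pif4 pil5, against 7.29, 7.51 and 7.87 in Col, and the oleosin gene OLEO3 3.89, 4.93 and 6.34, against 4.03, 4.25 and 6.49; neither passed.

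Many members differed between day 6 and day 4 after germination. Age was not separated from time since the move out of short days. Day 6 was compared with day 4 in a fit with a term for the day. Of the members 42 passed, 42.4%, with 26 higher and 16 lower on day 6, against 20.2% of all probe sets (10.7% higher and 9.58% lower). Days lay partly in different array batches, and with the batch as a block 10 members passed, against 2% of all probe sets. The largest changes were in the unnamed 266353_at by 2.89, 261459_at by 2.00, 259640_at by 1.51, 262260_at by 1.48 and 262603_at by 1.43, all higher on day 6.

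OLEO3 fell most from day 4 to day 6 among named members. Its means on days 4, 5 and 6 were 6.11 ± 0.63, 5.43 ± 0.71 and 5.04 ± 0.72 in CCA1OX, and 5.61 ± 1.04, 4.35 ± 0.19 and 4.02 ± 0.18 in Col (SD, n = 8, 7 and 6 arrays in each line). Whether the lines differ in this course was not tested, and the selection itself sets CCA1OX above Col. Day 6 minus day 4 was -1.40 ± 0.19 (SE; limma adjusted p = 1.1e-06), and with batch as a block the limma adjusted p was 0.0164. AT1G20070 fell by 0.83 (limma adjusted p = 6.4e-06, and 0.0437 with batch as a block). The other oleosin gene, AT3G01570, had -0.15 (limma adjusted p = 0.79).

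Among the members higher on day 6, AT5G22580 had means of 7.53, 8.38 and 8.61 on days 4, 5 and 6 in CCA1OX and 5.98, 6.32 and 7.25 in Col. It rose by 1.01 ± 0.20 (SE; limma adjusted p = 2.6e-04). The peroxidase gene AT2G41480 rose by 0.85 and the fructose transporter gene SWEET17 by 0.80. AT4G07820 rose by 0.54 (limma adjusted p = 0.0258), with means of 3.33, 4.06 and 4.46 in CCA1OX and 2.58, 2.57 and 2.67 in Col; whether the lines differ in this was not tested. The glycosyltransferase gene AT1G01390 fell by 1.15, with 6.51, 6.22 and 5.83 in CCA1OX and 5.62, 4.64 and 3.94 in Col. With batch as a block AT5G22580, AT2G41480 and AT1G01390 lost their calls, at limma adjusted p of 0.544, 0.0569 and 0.174. DI21, MPC and AT5G57150, the best separated named members, differed by -0.08, -0.03 and -0.02 between day 6 and day 4 and did not pass.

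**Figure D5:**
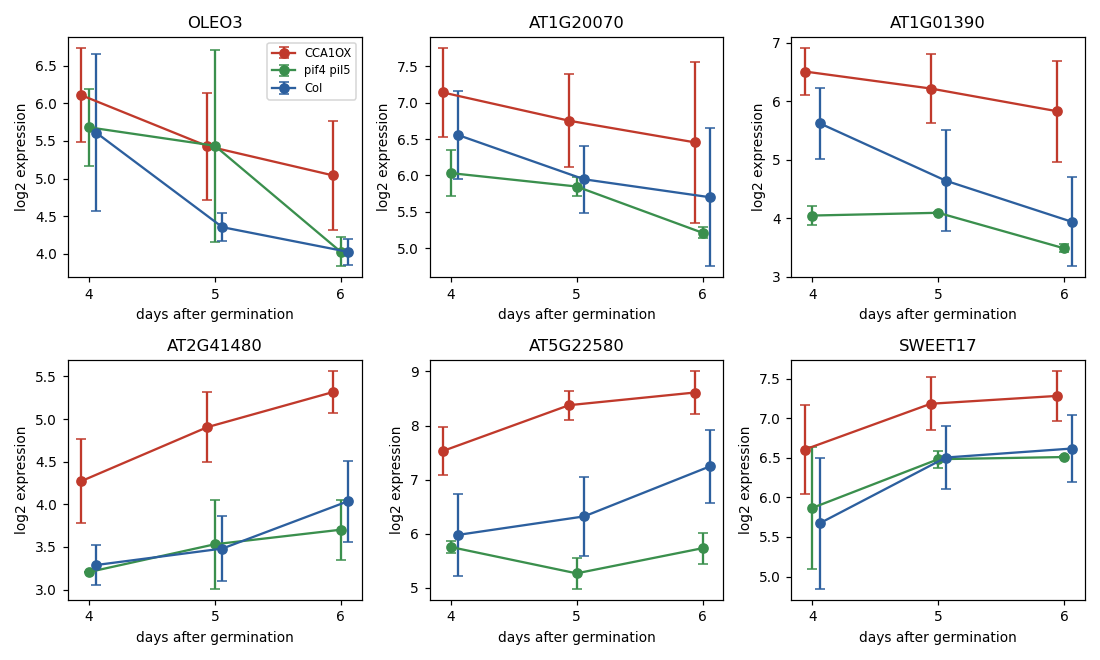
Mean log2 expression (points) with SD (bars) on days 4, 5 and 6 after germination for 6 members in CCA1OX, pif4 pil5 and Col; n is 8, 7 and 6 arrays for CCA1OX and for Col, and 2 arrays a day for pif4 pil5. OLEO3, AT1G20070 and AT1G01390 have lower means on day 6 than on day 4 in each line, and AT2G41480 and SWEET17 higher ones.

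Genes of the clock, cold, growth and wall pathways were set beside the members, from lists of textbook genes. No list gene was a member. GI, COR15A and COR15B passed the selection but were among those left aside. The limma test of CCA1OX minus Col over the 4 times averages the differences that the selection used. GI, COR15A and COR15B were therefore bound to lie above 0 in it. Of all probe sets 10.9% passed this limma test (5.84% higher and 5.03% lower). Of 6 clock genes with a name 3 were higher and 0 lower: GI, CDF5, a Dof repressor of flowering, by 1.00 ± 0.15 (SE), and CCL by 0.81 ± 0.21. Of 5 cold and abscisic acid genes COR15A and COR15B were higher, while COR47 and LTI30 differed by 0.16 and -0.07 with no call. Of 6 shade, auxin and growth genes IAA29 by 1.15, WES1 by 0.60, FHL by 0.50 and CDF5 were higher, and of 6 expansin and xyloglucan genes EXLA2, by 0.31. The smallest of the 4 differences was -0.18 in IAA29 and -0.091 in EXLA2, so these were not higher at every time. In CDF5, CCL, WES1 and FHL the smallest difference was above 0 but under 0.5. Few listed genes had a name: 6 of 38 clock genes and 5 of 22 cold genes.

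Markers of green tissue and of roots were both at clear levels, as the label of whole seedlings implies. The green tissue genes RCA and LHCB4.1 averaged 12.5 and 12.1 in CCA1OX and 12.4 and 12.0 in Col. The root genes EXPA7, EXPA18 and PYK10 averaged 5.23, 5.81 and 12.0 in CCA1OX and 5.77, 6.37 and 11.9 in Col, with 0 of 3 called. Their mean level by array ran from 6.70 to 8.33 in CCA1OX and from 7.10 to 8.84 in Col. No seed or flower marker had a name here, and the part of organ composition in the members' differences was not tested.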

How the data were processed

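The authors deposited 1 table of log2 expression values for 48 ATH1 arrays, made by RMA with the affy package per the submitters' processing notes, with no version given; RMA corrects background, equalises array distributions by quantiles and summarises probes. Arrays have no read depth, and precision rests on how many arrays a group holds. Of 22810 rows 64 controls were left out. Gene names came from the platform annotation table updated through RefSeq (13513 probe sets with 1 gene, 503 with several, 8730 with none). The members and lists were chosen with earlier results of these data known. Differences of group means gave the members. Other contrasts were fitted with limma 3.58.1 in R 4.3.3, 1 mean per group over all arrays, 39 residual degrees of freedom, two-sided, with Benjamini-Hochberg adjustment over 22746 probe sets at 0.05. The day comparison had a term for day. A simulation with known changes was used to test the fit. Samples are pools, and each CCA1OX or Col group held pools of different days, time courses and array batches. The main fit had no term for these. Its p-values therefore rest on the spread between pools together with differences between days, time courses and batches. The main fit also treated pools of the same time course and day as independent, although their residuals were correlated.

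Named with values are the 12 single-gene members and the 4 unnamed members with the highest mean difference, up to 5 called members per comparison by size of change, members near the limit, and all members of a described role; further members called in a comparison were named after their values were seen. Same-numbered samples of a time course and day had residuals correlated by 0.297, those of other days by 0.0781 and those of other numbers by -0.158, so the title number, which marks the time course in CCA1OX and Col, pairs samples mainly within a day.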

Additional observations from a re-analysis of the deposited data

Results flagged for a closer look

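For 12 members and the median of all members, examined group by group, 4 of 117 sets of 5 or 6 arrays held an array far from the others by Dixon's test, which chance gives in about 1 of 20 sets. AT4G35720 had 4.86 on CCA1OX dark 280 replicate 2, where the other 5 arrays had 6.67 to 7.46, and 4.07 on pif4 pil5 dark 280 replicate 4, where the others had 3.35 to 3.52. DI21 had 7.78 on CCA1OX dark 280 replicate 5, where the others had 8.37 to 8.67, and 6.58 on Col light 1080 replicate 2, where the others had 7.37 to 7.66.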

How the results depend on the processing

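Group sizes of 5 or 6 arrays and the division of CCA1OX and Col over 2 campaigns limit these results. From 99 members, the count of probe sets passing the rule became 199 in the second campaign alone (76 of them members) and 176 at a limit of 0.4; leaving out each array gave 79 to 111. Percentages in brackets are the share of all probe sets called under the same setting. Members called dark against light in CCA1OX (12, 10.2%) became 19 with batch as a block (13.7%) and 0 in the first campaign alone (0%). They became 23 with array weights (17%), 21 with only the groups compared (13.3%) and 19 on 45 arrays (13.3%). Leaving out each array gave 8 to 15. In Col (4, 3.24%) they became 0 with the first campaign alone (0%), 2 with the second (2.97%) and 10 with weights (7.34%). They became 1 with only the groups compared (0.932%) and 11 on 45 arrays (8.99%), and 3 to 7 leaving out each array. The 7 came without Col dark 280 replicate 3 (5.77%) or Col light 1080 replicate 3 (6.29%). For late against early in Col (0, 0.268%), 1 passed with batch as a block (0.255%), 1 in the first campaign (0.149%) and 5 on 45 arrays (0.958%). Leaving out each array gave 0 to 1. In CCA1OX no setting gave a call, and leaving out each array gave 0 to 0. For pif4 pil5 against Col (4, 0.607%), 9 passed with the replicate block (1.57%), 2 in the second campaign (0.189%) and 12 with weights (2.43%). There were 0 with only the groups compared (0.0923%) and 8 on 45 arrays (0.809%), and 1 to 9 leaving out each array. For day 6 against day 4 (42, 20.2%), 10 passed with batch as a block (2%), and 38 to 42 leaving out each array. With the replicate block the counts were otherwise 99 members and 14, 6, 0, 0 and 42 calls, in the order of the results above. Of all probe sets 11.8% and 4.23% then passed dark against light in CCA1OX and in Col. For late against early it was 0% in CCA1OX and 0.29% in Col, and for the day 21.8%. Of 15 called gene results in 11 genes that were followed through these settings none reversed its direction; other named members were not followed. The cause of the changes was not tested. The first campaign alone holds no pif4 pil5 arrays, and a fit of only the groups compared was not run for the day.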
